A study of Mus musculus with 24 samples.

Results

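Of 113764 m6A peaks in mouse oocytes and preimplantation embryos, 7109 (6.25%) had their midpoint in a gene that does not code for protein and in no protein-coding gene body, and these peaks and their genes are described here. A further 3548 peaks lay in a non-coding and a protein-coding gene at once and were not taken. The other peaks lay in protein-coding gene bodies (85761) or outside all genes of the annotation (20894). The annotation, a RefSeq table of GRCm38.p6, the assembly behind mm10, lists 28056 non-coding genes: 12736 of long non-coding RNA (lncRNA), 10429 pseudogenes and 4891 others, mostly small RNAs. A gene was called marked in a library when at least 1 of these peaks had its midpoint in it, introns included. By this measure 1536 non-coding genes (5.47%) were marked in at least 1 library, namely 890 lncRNA genes, 607 pseudogenes and 39 other genes.

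N6-methyladenosine (m6A) was mapped by a low-input form of methylated RNA immunoprecipitation sequencing in C57BL/6N mice aged 8 weeks at hormone injection. The stages were fully grown germinal vesicle (GV) oocytes of the surrounded-nucleolus type, metaphase II (MII) eggs at 14 h after chorionic gonadotropin, and zygotes at 27 to 28 h, 2-cell embryos at 39 to 43 h, 8-cell embryos at 68 to 70 h and blastocysts at 92 to 94 h. Each stage had 2 replicate pools, of 49 GV oocytes each, 100 and 110 MII eggs, 100 and 51 8-cell embryos, and 100 in each pool of the other embryos. Cumulus cells were removed from oocytes and eggs, the zona pellucida from all stages and ribosomal RNA from all pools, and each pool gave 1 peak list, of RNA bound by the antibody relative to input, with 6914 to 11959 peaks once summits of the same interval were counted as 1. GV oocytes, MII eggs and zygotes, whose RNA comes mostly from oocyte growth, form the maternal phase (6 libraries), and the later stages the embryonic phase (6 libraries). Read depth is unknown, and input RNA was not used here, so RNA level and methylation cannot be told apart: a gene without a peak may be unmethylated, little expressed or below detection. Of the markers checked, the oocyte growth factors Gdf9 and Bmp15 were marked in all 6 maternal libraries and in 2 and 1 embryonic ones, and the trophectoderm factors Cdx2 and Eomes only in the 4 8-cell and blastocyst libraries. Not all markers followed their stage: of the 2-cell genes, Tcstv1 was marked in both GV libraries and in neither 2-cell library, and Zscan4d in 3 maternal and 4 embryonic libraries. The oocyte genes Zp3, Figla and Oosp1 and the blastocyst keratin Krt8 had no peak in any library, and of 5 cumulus cell markers only Has2 had one, in 1 MII library.

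Long non-coding RNAs are spliced, capped transcripts that act as RNA, on chromatin, in nuclear bodies or in the cytoplasm. Pseudogenes are copies of genes that have lost their coding function, many of them inserted into the genome from a processed messenger RNA, and some are transcribed. The methyltransferase complex that writes m6A on messenger RNA also acts on lncRNA, with Xist and Malat1 as well known substrates. In mouse, the growing oocyte stores a large transcriptome with many lncRNAs started from retrotransposon promoters, most of which is degraded around the 2-cell stage as the embryonic genome is activated.

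The sequences shown first are the promoter windows that peaks of their own gene touched in at least 6 libraries. A window runs from 250 bases before to 50 after the annotated start (RefSeq, GRCm38.p6). A touching peak lies at or near the start and need not cover the RNA's first bases. Such windows were few: 121 peaks of 45 genes touched one, among the 703 marked non-coding genes in the promoter table. Malat1 lies on the minus strand (chr19:5802623-5802922, touched in 11 libraries) and Gm39321 on the plus strand (chr9:42141831-42142130, touched in 8 libraries). AU016765 (chr17:64555541-64555840) and Gm30725 (chr1:190442754-190443053), both on the minus strand, were touched in 6 libraries each. Gm39321 was marked in the 6 maternal and both 2-cell libraries, AU016765 in the 6 maternal ones and Gm30725 in these and 2-cell replicate 1, while Malat1 was marked in all 12. Capitals mark bases inside the peaks of at least 50% of the libraries with a peak on that window.
Malat1: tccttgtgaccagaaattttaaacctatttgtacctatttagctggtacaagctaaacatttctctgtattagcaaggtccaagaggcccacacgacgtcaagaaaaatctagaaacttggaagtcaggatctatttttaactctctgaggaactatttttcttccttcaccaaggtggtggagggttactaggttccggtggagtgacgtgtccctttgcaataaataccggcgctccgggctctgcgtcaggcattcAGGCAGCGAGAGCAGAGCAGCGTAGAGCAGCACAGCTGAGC
Gm39321: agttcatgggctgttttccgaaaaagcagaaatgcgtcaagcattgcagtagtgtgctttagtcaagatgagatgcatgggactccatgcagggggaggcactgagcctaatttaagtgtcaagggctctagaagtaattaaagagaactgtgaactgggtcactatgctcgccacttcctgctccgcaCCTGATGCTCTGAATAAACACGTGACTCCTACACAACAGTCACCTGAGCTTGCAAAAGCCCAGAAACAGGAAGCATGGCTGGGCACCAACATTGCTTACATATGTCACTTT
AU016765: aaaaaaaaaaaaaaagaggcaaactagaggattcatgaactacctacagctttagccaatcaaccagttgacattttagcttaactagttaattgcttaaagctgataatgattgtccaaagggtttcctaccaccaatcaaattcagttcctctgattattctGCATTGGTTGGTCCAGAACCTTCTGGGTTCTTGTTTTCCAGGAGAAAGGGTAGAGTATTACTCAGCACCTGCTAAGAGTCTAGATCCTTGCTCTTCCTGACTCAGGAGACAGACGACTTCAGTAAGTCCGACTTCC
Gm30725: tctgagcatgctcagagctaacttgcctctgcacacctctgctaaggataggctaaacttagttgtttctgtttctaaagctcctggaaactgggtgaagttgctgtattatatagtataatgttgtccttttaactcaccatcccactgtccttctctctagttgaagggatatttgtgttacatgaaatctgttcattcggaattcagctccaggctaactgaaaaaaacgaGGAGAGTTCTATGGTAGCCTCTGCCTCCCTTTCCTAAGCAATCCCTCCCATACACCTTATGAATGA
The capitals run to the end of each window. They number 41 of 300 bases for Malat1, all after the annotated start, and 111, 136 and 66 for the others, where they begin before it. GGACT, a common form of the m6A consensus, was on neither strand of the Malat1 and Gm30725 windows. The AU016765 window held it once, on the reverse strand. The Gm39321 window held it once, on the forward strand, before the start and outside the capitals. On the forward strand, no window shown held GGAC in the 50 bases after the start. Searched on both strands, GGACT occurred in 17 of the 50 windows (34%) that held part of a peak of their own gene, in 41.5% of the 906 windows of marked non-coding genes and in 45.5% of all 32851 windows in the table.

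Few small RNA genes were marked. Only 2 of 1228 microRNA genes and 2 of 2344 snoRNA and snRNA genes were marked, and none of 471 tRNA and rRNA genes or of 8 structured RNAs such as the RNA components of RNase MRP and of telomerase. No peak was narrower than 200 bp, and ribosomal RNA had been depleted. The rule itself also keeps these counts low. A small RNA gene wholly inside a protein-coding gene could not be marked, yet is counted in the totals. The midpoint of a peak had to fall within the gene, and genes outside the lncRNA and pseudogene classes had a median length of 107 bp. The mature forms of the 2 marked microRNA genes are printed with the seed (bases 2 to 8) in capitals; their seeds differ.
mmu-miR-682: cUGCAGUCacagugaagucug
mmu-miR-6363: uGUAGACUggacuguccucaaa
Mir682 (chr13:75645046-75645141) lay under a peak in 3 embryonic libraries (2-cell replicate 2, 8-cell replicate 2 and blastocyst replicate 1), and these peaks were 305 to 365 bp wide and shared with the pseudogene Gm4149, whose bounds contain the hairpin. Gm4149 itself was marked in all 6 embryonic libraries and in no maternal one. Mir6363 lay under 1 peak of 200 bp in blastocyst replicate 2, shared with the non-coding gene Dubr. Peaks of this width do not separate a hairpin from the longer RNA around it.

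The balance between lncRNA genes and pseudogenes reversed at the 2-cell stage. Peaks in lncRNA genes made up 5.32% and 5.03% of all peaks in the 2 GV libraries, 4.40% and 4.73% in MII eggs and 5.02% and 4.81% in zygotes. They made up 3.71% and 3.22% in 2-cell embryos, 2.25% and 1.71% in 8-cell embryos and 1.63% and 2.03% in blastocysts. All 6 maternal libraries were above all 6 embryonic ones, with a mean of 4.88% ± 0.316 (SD, n = 6) against 2.43% ± 0.851 (SD, n = 6). The difference of 2.46 percentage points had an exact two-sided permutation p of 0.00216, also after Benjamini-Hochberg adjustment over both gene classes, which is the smallest that 6 against 6 libraries allow.

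Pseudogene peaks went the other way. They made up 1.87% and 1.87% of all peaks in GV oocytes, 1.60% and 1.84% in MII eggs and 2.1% and 1.89% in zygotes, then 3.97% and 3.56% in 2-cell embryos, 3.21% and 2.84% in 8-cell embryos and 2.26% and 2.73% in blastocysts. Again the groups did not overlap, with 1.86% ± 0.160 (SD, n = 6) in the maternal and 3.10% ± 0.617 (SD, n = 6) in the embryonic phase and an adjusted exact permutation p of 0.00216. Among the non-coding peaks alone, pseudogenes held 25.9% to 29.2% in maternal and 50.6% to 61.7% in embryonic libraries. The 2 pools of a stage do not stand for separate stages of the phase. All p-values that compare the phases, above and below, for shares, numbers of genes or single genes, therefore measure the spread between these libraries only.

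**Figure D1:**
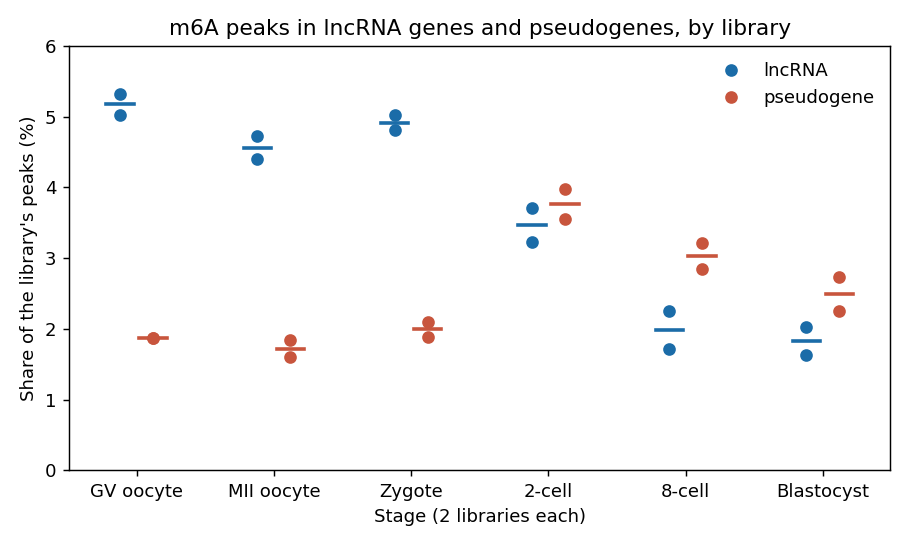
Share of each library's peaks (vertical axis, percent) in lncRNA genes (blue) and in pseudogenes (red), by stage. Each point is 1 library and each bar the mean of the 2 replicates. LncRNA shares lie at 4.40% to 5.32% up to the zygote and at 1.63% to 3.71% from the 2-cell stage, while pseudogene shares are highest in 2-cell embryos.

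Taken as 1 class, non-coding peaks showed no such split: their share was 6.13% to 7.24% in the maternal libraries, 7.85% and 6.95% in 2-cell embryos, 5.47% and 4.61% in 8-cell embryos and 3.90% and 4.76% in blastocysts. The difference of 1.25 points had an exact permutation p of 0.0779. Without the 2-cell libraries it was 2.15 points (exact permutation p = 0.00476). The intergenic share was 19.5% to 27.1% in maternal libraries and 31.4% and 25.8% in 2-cell embryos, where the lncRNA share was already lower. It was 3.74% to 8.47% in the later stages, where peaks in protein-coding genes made up 86.1% to 92.4%; the part of this shift in the lncRNA difference was not tested. The number of marked non-coding genes was 588 and 634 in GV oocytes, 497 and 443 in MII eggs, 396 and 532 in zygotes, 506 and 468 in 2-cell embryos, 379 and 344 in 8-cell embryos and 280 and 332 in blastocysts. The phases differed by 130 genes (exact permutation p = 0.0303) but overlapped. With lists cut to equal length the difference was 65 genes (exact permutation p = 0.0433) and without pseudogenes 196 (exact permutation p = 0.00216), and leaving out either GV library, zygote replicate 2, 8-cell replicate 2 or either blastocyst library gave a p of 0.0541 to 0.0628.

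Most non-coding genes were marked in a few libraries only. Of the 1536 marked genes, 457 (29.8%) had a peak in 1 library, against 18.4% of all genes with a peak, and 13 (0.846%) in all 12, against 7.36%. In the gene-wise test (Fisher's exact test on 6 against 6 libraries, Benjamini-Hochberg over the 2634 coding and non-coding genes marked in 5 to 7 libraries), 214 of the 338 non-coding genes tested were called maternal, where the background over all genes tested was 32.6%. Another 64 were called embryonic, where the background was 21.3%. Of the 207 lncRNA genes tested 165 were called maternal and 13 embryonic, while the 126 pseudogenes tested divided into 46 maternal and 50 embryonic. The test counts the 2 pools of a stage as separate libraries, so its calls hold for these libraries only. It also leaves out genes marked in few libraries. Over all 1536 marked genes the balance was another, with 723 marked in more maternal and 772 in more embryonic libraries. Of the 890 lncRNA genes 524 were marked in more maternal and 344 in more embryonic libraries, 326 of them in embryonic libraries only. Of the 607 pseudogenes 182 were marked in more maternal and 406 in more embryonic libraries. These counts depend on the peaks admitted: with only peaks of at least their library's median fold enrichment they were 106 and 35, and with lists cut to equal length the maternal count was 139. Without 1 of the 2-cell libraries the embryonic count was 106 or 110.

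**Figure D2:**
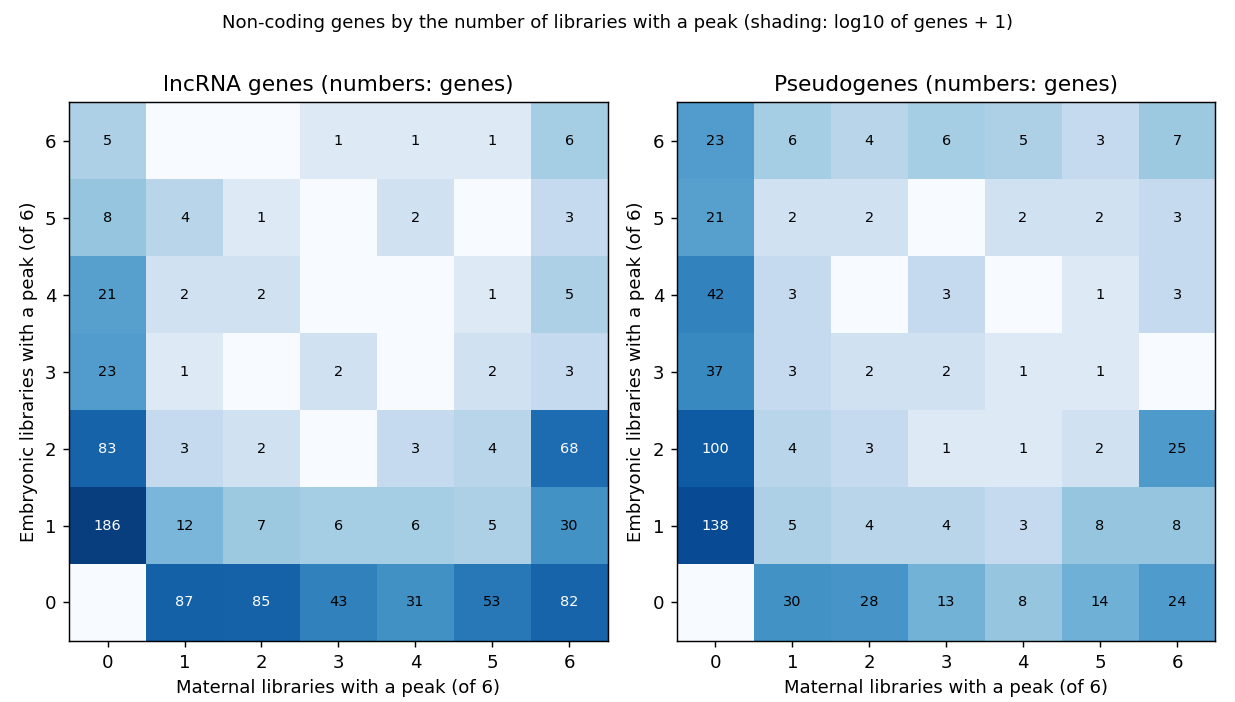
Number of lncRNA genes (left) and pseudogenes (right) by how many of the 6 maternal libraries (horizontal axis) and of the 6 embryonic libraries (vertical axis) had a peak in them, shaded on a log10 scale. Apart from the genes with a peak in few libraries, lncRNA genes lie mostly at the lower right (82 genes with 6 maternal and 0 embryonic libraries), and pseudogenes reach further up the left edge (23 genes with 0 and 6).

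Marking changed most often on both sides of the 2-cell stage. From zygote to 2-cell embryo, counting genes marked in both replicates of one stage and in neither of the other, 187 non-coding genes were gained, against a background of 15.3% of all genes marked at either stage, and 153 were lost, against 12.3%. As shares of the 988 non-coding genes marked at either stage these are 18.9% and 15.5%. The classes moved apart. Of 399 pseudogenes 121 (30.3%) were gained and 35 (8.77%) lost, and of 564 lncRNA genes 61 (10.8%) were gained and 117 (20.7%) lost. From 2-cell to 8-cell embryo 201 of 872 non-coding genes (23.1%) were lost, where the background was 9.59%, and 102 (11.7%) gained, where it was 14.9%. The other steps changed fewer genes in all. From GV to MII 25 of 770 (3.25%) were gained and 111 (14.4%) lost, near the backgrounds of 4.96% and 13.7%. From MII to zygote it was 16 of 659 (2.43%) and 19 (2.88%), with backgrounds of 1.34% and 4.48%. From 8-cell to blastocyst it was 21 of 636 (3.30%) and 71 (11.2%), with backgrounds of 6.29% and 6.21%. No test was made of these counts, and neighbouring steps share the stage between them.

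The 2-cell stage also had the most genes of its own. Of the 345 non-coding genes marked in both 2-cell replicates, 91 (26.4%) had no peak in any other library, against a background of 6.97%, and 53 of these were pseudogenes and 36 lncRNA genes. For comparison there were 64 in GV oocytes (background 4.83%), 5 in MII eggs (0.739%), 4 in zygotes (0.516%), 32 in 8-cell embryos (4.03%) and 16 in blastocysts (5.31%). The leading 2-cell genes had some of the most enriched peaks of their libraries. Gm40146 (lncRNA, chr3:126106710-126183716) reached the 99.3rd and 99.2nd percentile of fold enrichment in the 2 replicates, the percentile being taken over all peaks of the library; here and below it is that of the gene's best peak in a library unless another peak is named. The pseudogene Gm13696 reached the 97.6th and 99.4th, and the lncRNA Gm40200, with 3 peaks in each replicate, the 97th and 98.3rd. The leading genes of the other stages, taken from sets of different size, were Gm34894 (GV, mean percentile 92.9), Gm30069 (MII, 65.2), Gm46925 (zygote, 80.6), Platr10, a pluripotency-associated transcript (8-cell, 96.4), and the pseudogene Gm7665 (blastocyst, 83.1).

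The genes marked in all 12 libraries include lncRNAs with known roles. Tug1, a nuclear and cytoplasmic lncRNA conserved among mammals (chr11:3639785-3648814), had 47 peaks in all, more than any other lncRNA gene, with 1 to 6 in each library. Its best peaks stood at the 90.9th and 98.3rd percentile in GV oocytes, 98.9th and 94.6th in MII eggs, 62.1st and 95.8th in zygotes, 75.4th and 82.8th in 2-cell embryos, 84.9th and 95.5th in 8-cell embryos and 93.1st and 81.4th in blastocysts. One region, chr11:3646478-3647146, was marked in all 12. Norad, which binds Pumilio proteins (chr2:156388063-156392979), had 18 peaks, and the region chr2:156392051-156392942 was marked in all 12 libraries. Its percentiles were 84.3 to 99.6 in 11 libraries and 54.7 in zygote replicate 1. All peaks of Norad also lie in the longer overlapping gene Gm14170, so the genes cannot be told apart here.

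Malat1, an abundant RNA of nuclear speckles (chr19:5795690-5802672), was marked in every library with 27 peaks, in 3 regions of which 2 lie near the start shown above. The region chr19:5801227-5802130 was marked in 12 libraries and chr19:5802406-5802689, which covers the start, in 11. Its best percentiles varied widely: 31.0 and 56.2 in GV oocytes, 86.1 and 96.8 in MII eggs, 63.5 and 80.8 in zygotes, 40.4 and 90.2 in 2-cell embryos, 89.8 and 72.2 in 8-cell embryos and 77.0 and 92.5 in blastocysts. The replicates of a stage lay far apart in several stages, most in 2-cell embryos. Neat1, the RNA scaffold of paraspeckles (chr19:5824708-5845480), was marked only in the 8-cell and blastocyst libraries, at percentiles of 31.4, 39.1, 53.8 and 3.78. Oip5os1, which directs the decay of a microRNA, was marked in 11 libraries, in all of them in the region chr2:119599525-119599998, and ranked highest in 8-cell embryos (86.2nd and 86.5th percentile).

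RNAs of the X-inactivation centre appeared late. Xist, which coats the X chromosome that is silenced in female cells (chrX:103460373-103483233, minus strand), had no peak up to the 2-cell stage. It had 6 and 5 peaks in the 8-cell and 3 and 5 in the blastocyst libraries. Its best peaks were at the 94.1st and 96.0th percentile in 8-cell embryos and the 97.4th and 96.0th in blastocysts. In all, 3 separate stretches were marked in all 4 of these libraries: chrX:103460559-103460817, 316 bp from the gene's end, chrX:103466005-103466736, which held the best peak, and chrX:103481891-103482847, 864 bp from the start. The antisense gene Tsix spans Xist, and all 19 peaks lie in both, so the strand of the marked RNA was not resolved. Ftx, an lncRNA of the same centre, was marked in 8-cell replicate 1 and blastocyst replicate 1. Marking in 4 libraries is below the 5 that the gene-wise test admits.

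Imprinted RNAs included a maternal and an embryonic case. Airn, the antisense RNA that silences Igf2r on the paternal chromosome (chr17:12741311-12859884), had 1 or 2 peaks in each of the 6 maternal libraries and 1 in blastocyst replicate 2, the best of each library at percentiles of 16.7 and 38.3 in GV oocytes, 16.4 and 16.1 in MII eggs, 50.8 and 30.8 in zygotes and 10.7 in that blastocyst library. It was called maternal by Fisher's exact test (adjusted p = 0.0281). Airn shares at least 1 peak with the overlapping non-coding gene Gm7162, so these genes cannot be fully told apart here. Snhg14, the long paternally expressed RNA that hosts snoRNAs and runs antisense to Ube3a (chr7:59272737-60450177), was marked in all 6 embryonic libraries and in no maternal one (Fisher's exact test, adjusted p = 0.00874). Its region chr7:59973128-59973837 was marked in all 6. The gene's best peaks, in this region or elsewhere, stood at percentiles of 31.8 and 15.7 in 2-cell embryos, 75.5 and 69.2 in 8-cell embryos and 75.8 and 10.7 in blastocysts. Of 12 annotated imprinted non-coding RNAs, 4 were marked, the other 2 being Rian and Igf2os in 1 blastocyst library each.

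Of 32 other well studied lncRNAs, 10 were marked (31.2%, against 5.47% of all non-coding and 6.99% of all lncRNA genes). Of these 10, 8 were marked in more embryonic than maternal libraries, against 344 of the 890 marked lncRNA genes. One of them, Lncenc1, was called embryonic. Lncenc1, an lncRNA of embryonic stem cells (chr13:97434970-97497664), had 14 peaks in 5 embryonic libraries and none in maternal ones, with percentiles of 31.8 and 72.7 in 2-cell embryos, 64.4 in 8-cell replicate 2 and 92.7 and 94.3 in blastocysts (Fisher's exact test, adjusted p = 0.0281). Platr14, a pluripotency-associated transcript, was marked in the 4 8-cell and blastocyst libraries at percentiles of 73.1, 45.8, 60.9 and 28.9. Chaserr, which restrains its neighbour Chd2, was marked in 4 embryonic libraries. Of 21 RNAs in the list of snoRNA hosts, Oip5os1 among them, 4 were marked, in numbers of libraries that the gene-wise test does not admit. Snhg14 and Snhg11 stood in other lists. Snhg11 was marked in 5 embryonic libraries and no maternal one and was called embryonic (Fisher's exact test, adjusted p = 0.0281).

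The maternal calls were led by little studied genes. In all, 107 non-coding genes were marked in the 6 maternal libraries and in no embryonic one, and 90 in both replicates of every stage up to the 2-cell embryo and not later. No share over all genes was taken for these patterns, so they cannot be called particular to non-coding genes. Gm6367, a transcribed pseudogene (chr5:94988626-95026615), ranked highest of the first kind, with 2 to 4 peaks per library, the best at the 99.2nd and 99.0th percentile in GV oocytes, 99.4th and 98.0th in MII eggs and 94.0th and 94.9th in zygotes. The lncRNA Gm31471 (chr10:9694841-9699214) had a single peak in each, at percentiles of 97.3 and 94.8, 97.2 and 98.7, and 80.3 and 97.2. Platr30, a further pluripotency-associated transcript (chr3:96345287-96358479), had 2 peaks in each, the best at percentiles of 86.9 to 99.2. The others of the 8 leading genes were Gm29514, Gm34049, LOC105243939, AI463229 and Gm9548, with mean percentiles of 86.9 to 91.3. All 8 had an adjusted p of 0.00874 by Fisher's exact test, the smallest it gave. Every gene marked in all 6 libraries of one phase and none of the other gets this value, so it was fixed by how these genes were chosen. Of the genes that kept their mark into the 2-cell embryo, the lncRNA Gm20754 (chr3:73066351-73594830) had 28 peaks. Its best peak in each of the 8 libraries stood at the 93.6th to 99.3rd percentile, and the regions chr3:73486849-73488092 and chr3:73506649-73507982 were marked in all 8, with single peaks in the second as low as the 13.6th percentile. These 8-library genes lie outside the range that the gene-wise test admits.

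**Figure D3:**
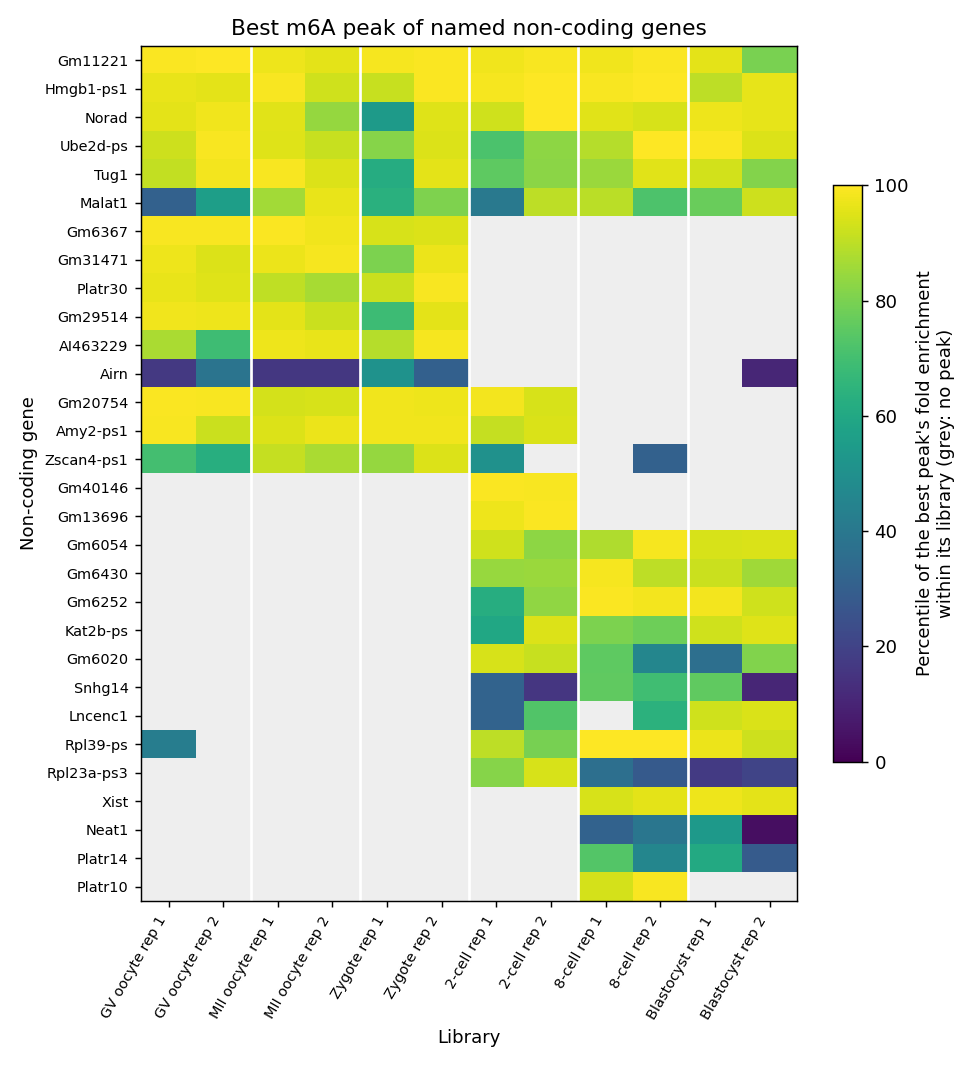
Percentile, within its library, of the fold enrichment of the best peak (colour scale, 0 to 100) of 30 non-coding genes named in the text or belonging to the gene lists (rows) in the 12 libraries (columns, white lines between stages). Grey means no peak. From top to bottom the rows pass from genes with a peak in every library over maternal ones to genes first marked in 2-cell and then in 8-cell embryos. Rpl39-ps, placed among the 2-cell rows, also had a peak in GV replicate 1.

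Pseudogenes made up most embryonic calls. Of 29 non-coding genes marked in all embryonic and no maternal libraries, 23 were pseudogenes. For this pattern too no share over all genes was taken. Gm6054 (chr5:147408901-147409611) had percentiles of 92.6 and 83.0 in 2-cell embryos, 88.1 and 98.5 in 8-cell embryos and 93.8 and 94.5 in blastocysts. Gm6430 (chr1:97024400-97026555) had 84.4 and 84.8, 98.6 and 89.9, and 92.1 and 85.6. Gm6252 (chr19:9216311-9216995) stood at 62.4 and 83.4 in 2-cell embryos and at 92.6 to 99.3 later. The others of the 8 leading genes were 2610005L07Rik, Gm5612, Gm15387, Gm5937 and Kat2b-ps. All 8 had an adjusted p of 0.00874 by Fisher's exact test, again fixed by how they were chosen. Called pseudogenes had a median length of 1133 bp for embryonic and 2238 bp for maternal ones, against 24079 bp and 20881 bp for called lncRNA genes. The classes differ in length as a whole, with medians over the annotation of 932 bp for pseudogenes and 8427.5 bp for lncRNA genes. Reads from a pseudogene and from a near-identical parent or sister copy can be assigned to either, and how such reads were treated is not given in the sources used here, so which copy carried the mark is uncertain for every pseudogene named.

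Whether the parent was marked too, which does not show which copy carried the mark, was counted for pseudogenes named after their parent. Of 115 marked ones, 84 had a parent symbol in the table, and in 164 of their 274 gene and library pairs (59.9%) the parent was marked in the same library, where 13.7% to 23.8% of all protein-coding genes were marked per library. Hmgb1-ps1 (chr11:41141658-41143982), a copy of the chromatin protein gene Hmgb1, had 1 peak in each of the 12 libraries at percentiles of 89.9 to 99.9, and Hmgb1-ps2 also had one in all 12. Hmgb1 itself was marked in all 12. For 15 pseudogenes, copies of 11 parents, the parent had no peak in any library. Kat2b-ps (chr5:93382218-93393080), a copy of the histone acetyltransferase gene Kat2b, had 22 peaks over the 6 embryonic libraries, the best of each library at percentiles of 59.4 and 94.6, 80.2 and 78.0, and 92.6 and 95.2, while Kat2b had none. Weaker peaks of Kat2b-ps reached down to the 9.57th percentile. Gm11221 (chr4:69691955-69692651) was the highest ranked gene with a peak in all 12 libraries, at percentiles of 80.0 to 99.7.

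Of 319 ribosomal protein pseudogenes, copies of the genes for the proteins of the ribosome, 38 (11.9%) were marked. This compares with 5.47% of all non-coding genes and 5.82% of all pseudogenes. Of the 38, 36 were marked in more embryonic than maternal libraries, against 406 of all 607 marked pseudogenes. The gene-wise test admitted 11 of the 38 and called 10 embryonic and 1 maternal. Over all genes tested the backgrounds were 21.3% and 32.6%, and over the pseudogenes tested 39.7% and 36.5%. Of the ribosomal protein pseudogenes, 2 to 7 were marked per maternal and 15 to 22 per embryonic library. The median difference between maternal and embryonic libraries marked was -2, against -1 over all marked non-coding genes. Rpl36a-ps3 (chr6:136488735-136489200) had percentiles of 75.1 and 72.0 in GV oocytes, no peak in MII eggs, 64.3 and 52.1 in zygotes, 88.4 and 95.2 in 2-cell embryos and 99.8 or more in the 4 later libraries. It shared at least 1 peak with the non-coding gene Gm44140. Rpl39-ps, Rpl7a-ps12 and Rps7-ps3 were each marked in 6 embryonic and 1 maternal libraries (Fisher's exact test, adjusted p = 0.0281), the last pair through the same peaks. Rpl10a-ps1 and Rpl23a-ps3 were marked in 6 and 0 (Fisher's exact test, adjusted p = 0.00874), and Rpl23a-ps3 ranked highest in 2-cell embryos (81.7 and 93.9) and at 17 to 36.7 later. Rpl10a had no peak in any library and Rpl23a was marked in 6. Of the 1328 other named pseudogenes 77 (5.80%) were marked. Amy2-ps1, a copy of a pancreatic amylase gene, and Zscan4-ps1, a copy of a gene of the 2-cell embryo, were marked in 6 maternal and 2 embryonic libraries each, Amy2-ps1 at percentiles of 91.4 to 99.0.

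The antigen receptor loci, which lymphocytes rearrange, took most of the remaining peaks. Igh (chr12:113258768-116009954) had 87 peaks, Igk 45 and Tcra 31, each over a span of 1796232 to 3171119 bp, and 154 peaks lay in such loci and in no other non-coding gene. Igh had 9 to 13 peaks in each of the libraries up to the 2-cell stage, with best percentiles of 96.6 to 99.9, and after that 1 peak in 8-cell replicate 1 and 1 in blastocyst replicate 2, at 33.0 and 42.3. Tcra had 2 to 5 peaks in the same 8 libraries and none later. The annotation gives these loci as whole spans, so a peak inside one need not belong to a receptor transcript.

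Peaks in non-coding genes were more enriched than those in protein-coding genes of the same library. The median percentile of fold enrichment was 51.7 to 60.2 for non-coding and 40.0 to 49.7 for protein-coding peaks, and higher for non-coding in each of the 12 libraries. Intergenic peaks, at 51.7 to 71.3, ranked above both up to the 2-cell stage. By stage the difference was 14.3 points in GV oocytes, 16.3 in MII eggs, 17.2 in zygotes, 15.1 in 2-cell embryos, 5.01 in 8-cell embryos and 4.67 in blastocysts. The mean of 12.1 points had an exact two-sided sign-flip permutation p of 0.0312, the smallest that 6 stages allow. It was 23.7 points when peaks of low score were left out and 3.18 when peaks below the median fold of their library were, with the same exact permutation p. These values are on unlike scales. Percentiles were taken anew in the first setting but kept in the second, which cut off the lower part of their range. Widths did not differ beyond the spread between stages: the mean difference in median width was -8.25 bp (exact sign-flip permutation p = 0.562), with stage values from -47.75 to 32.5 bp. The widest peak, of 3460 bp, lay at chr6:130482086-130485545 in the pseudogene LOC115486437 in GV replicate 1, and GV replicate 2 had one of 3453 bp there.

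Along the gene, lncRNA peaks were less gathered at the end than those of protein-coding genes. Position was taken from start to end of the gene body for genes of at least 2000 bp with a known strand, 672 lncRNA and 7783 protein-coding genes. The final 10% of the gene body held 22.2% of the lncRNA and 36.7% of the protein-coding midpoints, more than an even spread would give. By library, the final 20% held 21.5% to 40.5% in lncRNA and 41.6% to 58.4% in protein-coding genes, which do not overlap. The lowest lncRNA values were those of the 2-cell libraries, 21.5% and 22.7%. These are positions in the gene with its introns, since the table gives no exons, and no test was made.

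**Figure D4:**
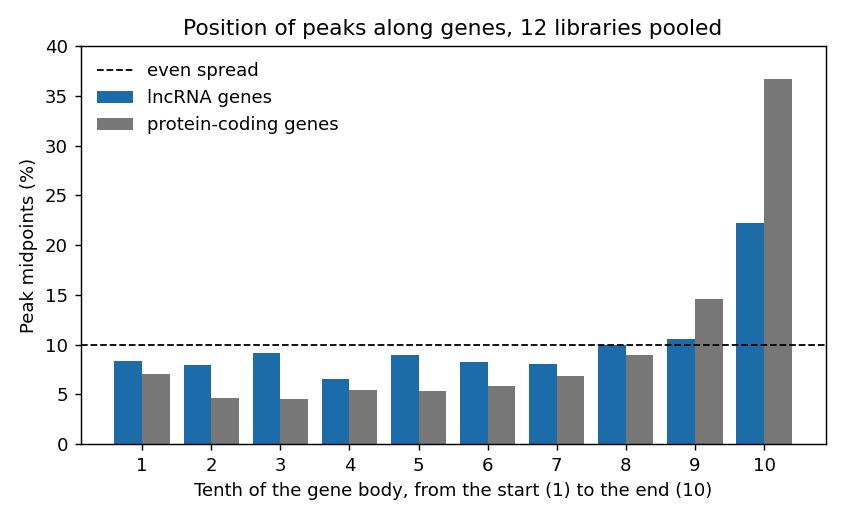
Percent of peak midpoints (vertical axis) in 10 equal parts of the gene body from start to end (horizontal axis) for lncRNA genes (blue) and protein-coding genes (grey), 12 libraries pooled; the dashed line is an even spread. The final part holds 22.2% of the lncRNA and 36.7% of the protein-coding midpoints.

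Replicates shared fewer non-coding than protein-coding genes in 5 of the 6 stages. Of the non-coding genes marked in either replicate, 75.8% were marked in both in GV oocytes, 74.4% in MII eggs, 59.2% in zygotes, 54.8% in 2-cell embryos, 56.8% in 8-cell embryos and 43.3% in blastocysts. For protein-coding genes the values were 82.6%, 72.6%, 62.0%, 57.5%, 69.0% and 60.9%. The mean difference of -6.69 points had an exact sign-flip permutation p of 0.0625. Among peaks of at least the median fold of their library it was 0.0477 points (exact permutation p = 1). LncRNA genes went from 78.0% in GV oocytes to 29.6% in blastocysts, where 55 of 186 genes were marked in both, while pseudogenes went from 71.4% to 54.2%.

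**Figure D5:**
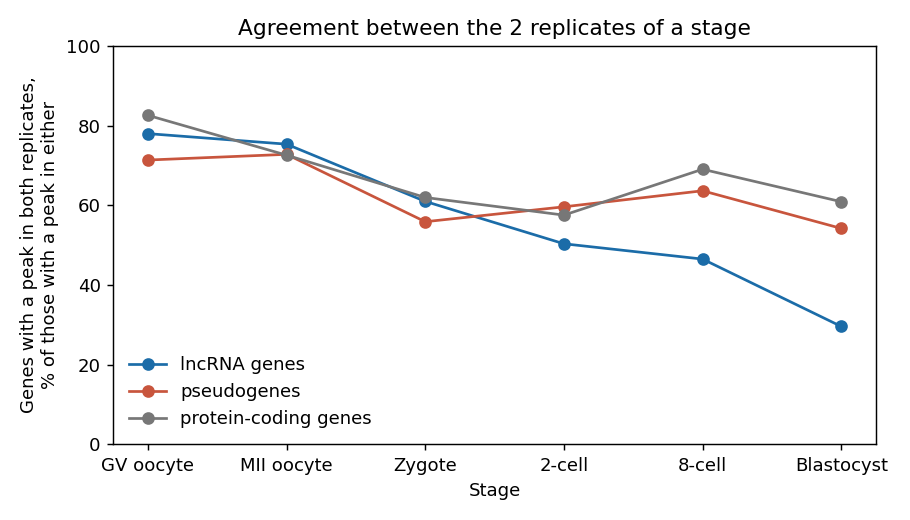
Genes marked in both replicates as a percent of those marked in either (vertical axis) at each stage (horizontal axis), for lncRNA genes (blue), pseudogenes (red) and protein-coding genes (grey). LncRNA genes fall to 29.6% in blastocysts, below the pseudogenes at 54.2% and the protein-coding genes at 60.9%.

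Non-coding peaks lay a median of 38120 bp from the nearest protein-coding gene, and 11.8% lay within 5000 bp of one. By library that share was 7.65% to 11.1% in the maternal and 13.4% to 19% in the embryonic phase. For intergenic peaks it was 11.6% to 13.3% and 13.6% to 30.7%, so the rise was not particular to non-coding peaks. Counting only non-coding peaks farther than 5000 bp, their share differed between phases by 1.46 points (exact permutation p = 0.0433).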

How the data were processed

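m6A was mapped in 24 samples, 12 immunoprecipitated and 12 input, of which the inputs were not used here. Per the submitters' processing notes, the build was mm10 and the tools named are MACS2 2.1.2, HISAT2 2.1.0, cutadapt 1.8.1, bedtools 2.28.0, SAMtools 1.9, FastQC 0.11.8 and deepTools 3.2.0, their settings being not given in the sources used here. By the names of the peaks, the authors compared each antibody library with its own input, stage by stage and without pooling replicates. The deposited lists give the authors' score, fold enrichment (a ratio), −log10 p-value and −log10 q-value per summit, used here only to rank, filter or describe peaks. The 143579 summits were collapsed to 113764 peaks by interval. Depth is unknown.

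Peaks were assigned by midpoint to gene bodies of a RefSeq table of GRCm38.p6 (gene starts and ends, no exons; strand from the promoter table). Phases were compared by exact two-sided permutation of the 12 libraries, non-coding with protein-coding peaks by sign flips of 6 stage values, and genes by Fisher's exact test with Benjamini-Hochberg adjustment at 0.05, tested on simulated data (Python 3.11.15, numpy 2.4.6, pandas 2.3.3, scipy 1.17.1). Alternatives were peak thresholds, overlap of 1 bp in place of the midpoint, equal list lengths, distance from protein-coding genes, a replicate block and each library left out. The planned motif test of peak sequences was not run, since no genome was used here.

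Named genes are up to 10 marked in all libraries, up to 8 per phase whose number of marked libraries differed most, 5 per class with the most peaks, up to 3 per stage marked at that stage alone, members of 13 gene lists and those with the widest or most peaks; genes with sequences at the start were added by the number of libraries touching their promoter window. Members and lists were chosen with earlier results of these data known.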

Additional observations from a re-analysis of the deposited data

How the results depend on the processing

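The lncRNA and pseudogene shares kept their direction and their side of the threshold under every alternative run, with differences of 2.30 to 2.71 and -1.40 to -1.06 points when 1 library was left out. The difference in the whole non-coding share (1.25 points) passed the threshold for peaks farther than 5000 bp from protein-coding genes (1.46), without pseudogenes (2.48) and, chosen after seeing the data, without both 2-cell libraries (2.15); it ranged from 0.910 to 1.70 with 1 library left out and also passed without 2-cell replicate 1 (1.70) or 2-cell replicate 2 (1.52). The difference in marked genes ranged from 106 to 154 in the same way; it was 65 with equal lists, 93.5 with high fold and 196 without pseudogenes, all past the threshold. Genes called maternal numbered 134 with scores at or above the median, 106 with fold at or above the median and 139 with equal lists, and 215 to 312 with 1 library left out; those called embryonic numbered 22 and 35 under the first pair of settings and 64 to 110 with 1 library left out. The width difference was 2.42 bp for high scores, and the replicate agreement difference 0.0958 points for high scores, 0.0477 for high fold and -6.20 (past the threshold) for equal lists. The causes were not tested. The enrichment difference was 11.6 to 12.5 points with 1 library left out. It was 23.7 for high scores and 3.18 for high fold, on unlike scales of percentile.

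Replicate numbers do not pair the samples: over 15 pairs of stages, deviations of same-numbered libraries correlated at -0.161 to 0.0223, none above 0.1. With the replicate number as a block the exact permutation p was 0.1 for the non-coding share, 0.005 for each of the lncRNA and pseudogene shares and 0.05 for marked genes, and 214 and 64 genes were called. Depth is unknown, and a missing peak sets no limit on methylation. The planned motif comparison was not run.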

Other observations

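Some marked pseudogenes lie side by side, a pattern picked after the values were seen. In the megabase of chromosome 11 from 60000000 to 60999999, 13 of 27 non-coding genes (48.1%) had a peak, 11 of them pseudogenes, with 73 peaks in all. Apart from Gm12625, marked in 3 maternal and 6 embryonic libraries, these pseudogenes had no maternal peak; Gm12614, Gm12624, Gm12628 and Gm12617 were each marked in 5 embryonic libraries. On chromosome 3, in the megabase starting at 93000000, 8 of 19 non-coding genes were marked, 7 of them pseudogenes, which had no peak in any maternal library. Neighbouring copies may share reads, and this was not tested.

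By chromosome, non-coding peaks made up 9.87% of all peaks on chromosome 13 and 9.85% on chromosome 12, against 3.47% on chromosome 9 and 3.96% on chromosome 8. Chromosome 12 holds Igh with 87 peaks and chromosome 13 holds Gm7240 with 44.

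Among 215 RNAs named as transcribed opposite a coding gene, 20 were marked. Peaks lay in Zmiz1os1 in 6 maternal and 1 embryonic libraries and in Uchl1os in 5 and 0, both called maternal by Fisher's exact test (adjusted p = 0.0281). Brip1os, marked in 1 and 5, was not called (Fisher's exact test, adjusted p = 0.134).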
